A study of Mus musculus with 10 samples.

Results

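The comparison described here set Rad23b-/- mouse embryonic stem cells carrying Xpc hairpin 2 (knockdown 2) against Rad23b-/- cells carrying Xpc hairpin 1 (knockdown 1). It was made to show where 2 hairpins against the same gene went with different transcript levels. Its members were the protein-coding genes: of 22200 listed by the authors' gene type, 12142 reached at least 1 RPKM (mapped reads scaled to transcript length and library size) in either knockdown and were compared, and the other 10058 were not. Each difference is given as a log2 ratio of RPKM + 1, knockdown 2 over knockdown 1, after scaling that made the wild-type columns of the authors' tables match. By this measure 31 genes were at least 2-fold higher in knockdown 2 (0.255% of those compared) and 28 were at least 2-fold lower (0.231%), 59 genes in all or 0.486%.

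The series holds 10 samples, of which 4 are poly-A RNA-seq libraries of the JM8.N4 embryonic stem cell line, sequenced together in a shared lane, and the others are chromatin immunoprecipitation libraries. The RNA libraries came from wild-type cells, from Rad23b-/- cells, from Rad23b-/- cells with Xpc KD1, and from Rad23b-/- cells with Xpc KD2, so that both knockdowns and the Rad23b-null cells share the loss of Rad23b. There was 1 library per group, no p-value or replicate error can be given for the contrast of the hairpins, and every difference below is one between 2 libraries. The hairpin sequences, their vector, any control hairpin and whether a knockdown line was a clone or a pool are not stated in the labels or files used here, so hairpin, clone and culture cannot be told apart.

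XPC is the damage sensor of global genome nucleotide excision repair and works as a trimer with RAD23B and the small calcium-binding protein CETN2. In embryonic stem cells the same trimer has been described as a coactivator for the pluripotency factors OCT4 and SOX2. A short hairpin RNA is cut by Dicer into a small RNA that guides Argonaute to matching transcripts, and hairpins of different sequence against the same gene share the intended target but not the other transcripts they can pair with.

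Both hairpins left about the same amount of Xpc transcript. Xpc (chr6:91439298-91465878, mm9) stood at 8.51 RPKM in wild type and at 8.12, 0.915 and 0.887 RPKM in Rad23b-null, knockdown 1 and knockdown 2, and the knockdown values are 10.8% and 10.4% of wild type. The log2 ratio between the knockdowns was -0.02, and with less than 1 RPKM in both, Xpc itself was not among the genes compared. Rad23b stood at 223 RPKM in wild type and at 42.7, 35.8 and 52.0 RPKM in Rad23b-null, knockdown 1 and knockdown 2, or 19.15%, 16.1% and 23.3% of wild type. These Rad23b reads were 1.44-fold higher in knockdown 2 (log2 ratio 0.52), on the same disrupted background. Cetn2, the remaining subunit of the trimer, was at 43.0, 29.6, 37.9 and 36.5 RPKM in wild type, Rad23b-null, knockdown 1 and knockdown 2, a log2 ratio of -0.05.

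Stem cell markers differed little between the knockdowns. Pou5f1 (OCT4) was at 1562, 1122, 1468 and 1418 RPKM in wild type, Rad23b-null, knockdown 1 and knockdown 2, and Sox2 at 179, 120, 135 and 132 RPKM. Of the 6 stem cell markers checked, Dppa5a had the largest difference, 2296 RPKM in knockdown 1 and 1654 in knockdown 2 (log2 ratio -0.47), followed by Esrrb at 77.0 and 59.6 (-0.36). The 9 defining fibroblast markers, a check for feeder cells, summed to 1.69, 2.51, 1.83 and 1.99 RPKM in the 4 libraries in the same order. Thy1, at 1.20 and 1.32 RPKM, was the only one of these 9 of at least 1 RPKM in either knockdown. Col3a1 and Postn were listed at an exact 1 in both, which was read as 0. Of a wider list of 27 fibroblast genes, 11 reached 1 RPKM in either knockdown and were compared. Their median log2 ratio was 0.19, with 8 higher in knockdown 2 and 3 lower. In libraries of whole cultures, fewer cells of a type and less RNA per cell cannot be told apart. Read totals are unknown. Among 3783 genes below 0.15 RPKM in both knockdowns, the most frequent ratio, held by 261, put knockdown 2 at 1.03 times the depth of knockdown 1. Knockdown 2 values were already scaled by 0.991 for this, so the figure includes that factor.

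Over all 12142 genes the knockdowns were close to each other, with a median log2 ratio of -0.00 and 11784 genes (97.1%) within 1.5-fold. At least 1.5-fold apart were 190 higher (1.56%) and 168 lower (1.38%), 2.95% in all. With a pseudocount of 0.1 in place of 1, which gives more weight to low values, the 2-fold limit took in 75 higher and 84 lower genes. The spread of the log2 ratios, taken as the mean distance of the bounds of their middle 68% from the centre, was 0.20. Set beside the Rad23b-null library, which both share a genotype with, the spread was 0.23 for knockdown 1 and 0.19 for knockdown 2. At least 2-fold from Rad23b-null were 24 genes higher (0.198%) and 45 lower (0.371%) in knockdown 1, 0.568% in all, and 32 higher (0.264%) and 31 lower (0.255%) in knockdown 2, 0.519% in all. The distance to wild type was larger: 533 genes (4.39%) were at least 2-fold apart in knockdown 1 and 535 (4.41%) in knockdown 2. Those comparisons share their control library, so they are set side by side without a test of overlap.

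**Figure D1:**
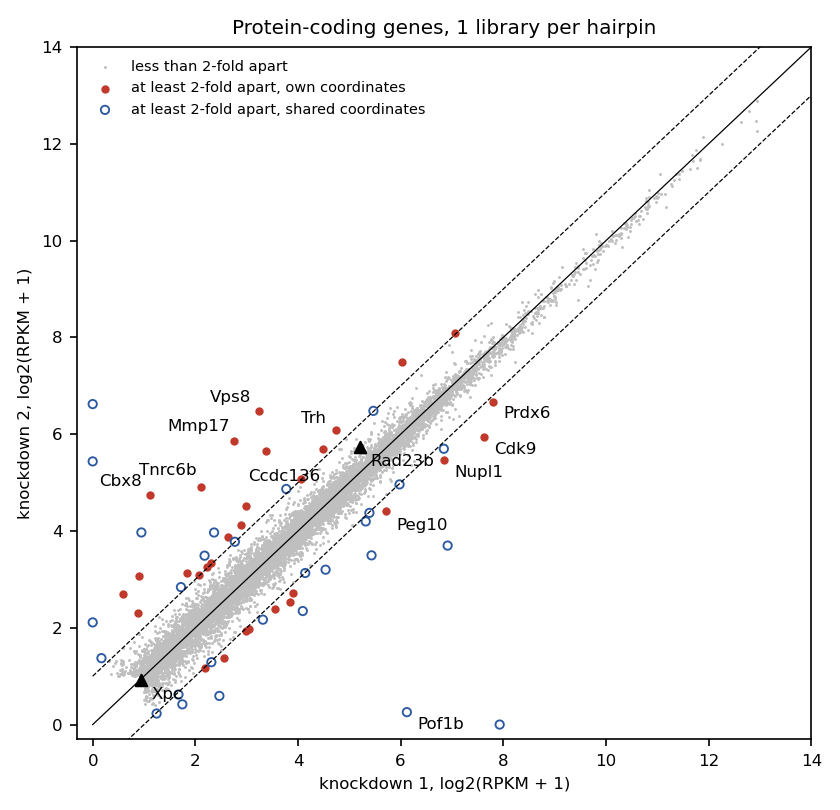
Each point is a protein-coding gene, with log2(RPKM + 1) in knockdown 1 on the horizontal axis and in knockdown 2 on the vertical axis, 1 library each. The solid line marks equal values and the dashed lines a 2-fold difference; 31 genes lie above the upper and 28 below the lower dashed line. Filled points have coordinates of their own, open points share listed coordinates with another gene, and triangles mark Xpc and Rad23b.

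The tables give the same coordinates to several genes where loci overlap, and for these the value may be that of the merged locus, which the tables do not state. Of the genes compared, 7530 had coordinates of their own and 4612 (38.0%) shared them. Among the 59 genes at least 2-fold apart, 31 had their own coordinates (20 higher and 11 lower in knockdown 2, 0.412% of such genes) and 28 shared them (11 higher and 17 lower, 0.607%). The genes described first are those with coordinates of their own. Of all 59, 18 (30.5%) carried gene-model names (Gm, Rik or the form of AA467197), beside 1152 of all 12142 genes (9.49%). The 3 genes just inside the 2-fold limit were Slc43a2 (log2 ratio 1.007), 5830433M19Rik (-1.009) and Ehd1 (1.013), and the 3 just outside were Wdr54 (0.996), Tmod4 (0.994) and Gm17684 (0.989).

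The gene with the largest excess in knockdown 2 was Cbx8, a chromobox subunit of Polycomb repressive complex 1, which reads the repressive histone H3 lysine 27 methyl mark. Cbx8 (chr11:118897618-118902283, mm9) was at 0.836 RPKM in wild type, 12.4 in Rad23b-null, 1.16 in knockdown 1 and 25.9 in knockdown 2. Knockdown 1 thus stood at the wild-type level and knockdown 2 above the Rad23b-null level, a log2 ratio of 3.64 between the hairpins. Vps8, a subunit of the CORVET tethering complex of early endosomes, split the libraries in a similar way, at 10.1, 90.5, 8.47 and 88.6 RPKM in wild type, Rad23b-null, knockdown 1 and knockdown 2. Its high libraries were Rad23b-null and knockdown 2 and its low ones wild type and knockdown 1, with a log2 ratio of 3.24. Neither gene was below 0.05 in the authors' deposited tables, which set each knockdown against wild type: the listed p-values were 0.789 and 0.419 for Cbx8 and 0.891 and 0.768 for Vps8.

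Mmp17, a membrane-anchored matrix metalloproteinase, had the opposite arrangement. It was at 67.7 RPKM in wild type, 4.61 in Rad23b-null, 5.76 in knockdown 1 and 57.0 in knockdown 2, so that knockdown 2 stood near wild type and knockdown 1 near Rad23b-null (log2 ratio 3.10). Trh, which encodes the precursor of thyrotropin-releasing hormone, was highest in wild type at 235.6 RPKM and lay at 26.9 in Rad23b-null, 25.9 in knockdown 1 and 67.3 in knockdown 2. The hairpins differed by 1.35 on the log2 scale for Trh, while both knockdowns stayed below wild type. In the authors' deposited tables Trh was below 0.05 in each knockdown against wild type, and Mmp17 in neither. Lgals7, which encodes a galectin of stratified epithelia, was at 12.6, 3.81, 0.861 and 7.41 RPKM in the same order, lowest in knockdown 1 and between Rad23b-null and wild type in knockdown 2 (log2 ratio 2.18).

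For a further set of genes knockdown 2 alone stood apart from the other 3 libraries. Tnrc6b, a GW182 protein that joins Argonaute to the machinery that silences and removes microRNA targets, was at 3.69, 3.76, 3.298 and 28.9 RPKM (log2 ratio 2.80). Ccdc136, a coiled-coil protein gene, was at 6.57, 6.79, 9.40 and 49.0 RPKM (2.27). Il17rc, a receptor subunit for interleukin 17 cytokines, was at 3.51, 2.79, 2.56 and 7.74 RPKM (1.30). In all 3 the wild-type, Rad23b-null and knockdown 1 libraries lay close together, and knockdown 2 was the high one. Fam65a was also highest in knockdown 2 at 21.8 RPKM, with 4.79, 9.02 and 6.95 in wild type, Rad23b-null and knockdown 1 (1.52). None of these genes was below 0.05 in the authors' deposited tables, in either knockdown against wild type.

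Knockdown 1 was the lowest library for Zfp618, Prdx3 and Gm17657. Zfp618, a zinc finger gene, was at 7.56, 12.6, 0.837 and 3.93 RPKM in wild type, Rad23b-null, knockdown 1 and knockdown 2 (log2 ratio 1.42), lower in both knockdowns than in the other libraries and lowest in knockdown 1. Prdx3, the mitochondrial peroxiredoxin, was named after its values were seen: it was at 54.2, 46.5, 21.5 and 51.0 RPKM (1.21). Only knockdown 1 departed from the rest for Prdx3. In the authors' deposited tables Prdx3 was below 0.05 against wild type in knockdown 1 only, and Zfp618 and Gm17657 in neither knockdown. The gene model Gm17657 was at 1.81, 3.76, 0.512 and 5.48 RPKM (2.10).

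The last of the 12 highest genes, the gene model Gm17604, was at 136, 62.4, 64.1 and 178 RPKM (log2 ratio 1.46), with Rad23b-null and knockdown 1 level and below the other libraries. Gm10982, also named after its values were seen, was at 0.358 RPKM in wild type, 7.23 in Rad23b-null, 132 in knockdown 1 and 273 in knockdown 2. Both hairpins stood above Rad23b-null for this gene model, by amounts that differed 2.05-fold (log2 ratio 1.04).

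**Figure D2:**
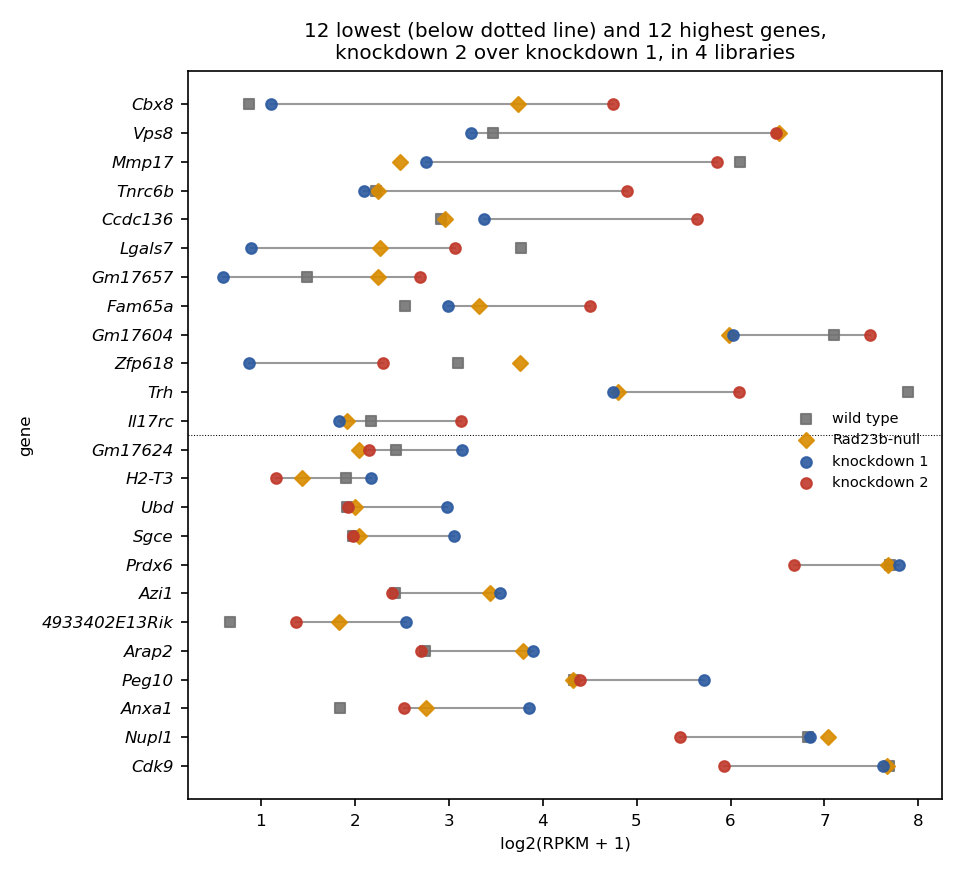
Values of log2(RPKM + 1) in the wild-type, Rad23b-null, knockdown 1 and knockdown 2 libraries for the 12 genes with the highest and the 12 with the lowest log2 ratio among genes with coordinates of their own; grey lines join the knockdowns. Rad23b-null lies at the knockdown 2 end for Vps8 and at the knockdown 1 end for Mmp17, and knockdown 2 is the outlying library for Tnrc6b and Cdk9.

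The lowest ratio among genes with coordinates of their own belonged to Cdk9, the kinase subunit of P-TEFb, which releases paused RNA polymerase II into elongation. Cdk9 (chr2:32561303-32568596, mm9) was at 204 RPKM in wild type, 201 in Rad23b-null, 195 in knockdown 1 and 60.2 in knockdown 2, a log2 ratio of -1.68. The nucleoporin gene Nupl1 was at 112, 130, 114 and 43.1 RPKM (-1.39), and Prdx6, a peroxiredoxin that also has phospholipase activity, at 207, 204, 221 and 101 RPKM (-1.12). In these 3 genes the first 3 libraries lay within a narrow range and knockdown 2 was low. In the authors' deposited tables none of the 3 was below 0.05 in either knockdown against wild type, with p-values of 0.996 and 0.836 for Cdk9, 0.999 and 0.963 for Nupl1, and 0.875 and 0.092 for Prdx6.

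Peg10 and Sgce are imprinted genes expressed from the paternal allele, and they lie head to head 101 bp apart on chromosome 6 (chr6:4697305-4710514 and chr6:4624349-4697204, mm9). They were the only pair of the 31 genes within 500 kb of each other. Peg10, a retrotransposon-derived gene needed in the placenta, was at 19.14, 19.01, 51.7 and 20.2 RPKM in wild type, Rad23b-null, knockdown 1 and knockdown 2 (log2 ratio -1.32). Sgce, which encodes epsilon-sarcoglycan, was at 2.95, 3.12, 7.30 and 2.95 RPKM (-1.07). For both neighbours the wild-type, Rad23b-null and knockdown 2 libraries were nearly equal and knockdown 1 was high. In the authors' deposited tables Peg10 was below 0.05 against wild type in knockdown 1 only, and Sgce in neither knockdown.

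Knockdown 1 was also the high library for Anxa1 and Ubd. Anxa1, a phospholipid-binding annexin linked to the actin cytoskeleton and to inflammation, was at 2.58, 5.78, 13.4 and 4.77 RPKM (log2 ratio -1.32), and Ubd, which encodes the ubiquitin-like modifier FAT10, at 2.78, 3.01, 6.90 and 2.81 RPKM (-1.05). The unnamed gene 4933402E13Rik was at 0.589, 2.56, 4.86 and 1.60 RPKM (-1.17), with Rad23b-null between the knockdowns. In Arap2, a GTPase-activating protein for Arf proteins, the high libraries were Rad23b-null and knockdown 1: the values were 5.73, 12.9, 13.96 and 5.55 RPKM (-1.19). Azi1, a centrosomal and ciliary protein gene, had the same arrangement at 4.41, 9.83, 10.7 and 4.26 RPKM (-1.15). The remaining lowest ratios were those of H2-T3, a nonclassical major histocompatibility gene (2.76, 1.71, 3.53 and 1.24 RPKM, -1.02), and the gene model Gm17624 (4.41, 3.13, 7.81 and 3.45 RPKM, -0.99), which stopped just short of 2-fold.

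To show the starts of genes at the extremes, the promoters of the highest pair, the lowest pair and Trh are printed here from RefSeq's table (GRCm38.p6), 250 bases before to 50 bases after the start, on the gene's strand, 5′ to 3′. These coordinates are of another build than the mm9 positions above. Capitals mark GGGCGG, the core of the GC box bound by SP1-family factors, or its reverse complement CCGCCC.
Cbx8 (chr11:119040864-119041163, minus strand): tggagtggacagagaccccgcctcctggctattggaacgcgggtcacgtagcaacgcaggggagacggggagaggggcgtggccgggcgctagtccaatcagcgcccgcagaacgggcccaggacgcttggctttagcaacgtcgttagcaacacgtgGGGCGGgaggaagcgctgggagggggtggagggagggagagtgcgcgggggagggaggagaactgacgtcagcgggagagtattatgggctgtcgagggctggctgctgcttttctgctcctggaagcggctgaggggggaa
Vps8 (chr16:21422868-21423167, plus strand): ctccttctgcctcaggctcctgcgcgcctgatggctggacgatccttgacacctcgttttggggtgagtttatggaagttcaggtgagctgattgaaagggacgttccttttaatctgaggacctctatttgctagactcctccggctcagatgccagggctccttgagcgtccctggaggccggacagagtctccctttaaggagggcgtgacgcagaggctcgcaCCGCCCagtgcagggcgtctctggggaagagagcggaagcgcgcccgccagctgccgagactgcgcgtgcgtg
Cdk9 (chr2:32712735-32713034, minus strand): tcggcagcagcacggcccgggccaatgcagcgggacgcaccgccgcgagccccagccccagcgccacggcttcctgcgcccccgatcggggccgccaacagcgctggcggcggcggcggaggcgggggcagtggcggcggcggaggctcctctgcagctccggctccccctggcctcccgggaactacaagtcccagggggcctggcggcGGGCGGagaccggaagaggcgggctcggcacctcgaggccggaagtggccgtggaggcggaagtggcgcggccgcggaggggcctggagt
Nupl1 (chr14:60251430-60251729, minus strand): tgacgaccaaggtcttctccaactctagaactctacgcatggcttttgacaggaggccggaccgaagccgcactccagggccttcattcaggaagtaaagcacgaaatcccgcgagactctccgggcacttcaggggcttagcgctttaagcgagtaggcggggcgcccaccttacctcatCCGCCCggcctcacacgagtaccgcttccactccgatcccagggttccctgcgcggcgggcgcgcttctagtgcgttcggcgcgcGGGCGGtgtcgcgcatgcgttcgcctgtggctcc
Trh (chr6:92244601-92244900, minus strand): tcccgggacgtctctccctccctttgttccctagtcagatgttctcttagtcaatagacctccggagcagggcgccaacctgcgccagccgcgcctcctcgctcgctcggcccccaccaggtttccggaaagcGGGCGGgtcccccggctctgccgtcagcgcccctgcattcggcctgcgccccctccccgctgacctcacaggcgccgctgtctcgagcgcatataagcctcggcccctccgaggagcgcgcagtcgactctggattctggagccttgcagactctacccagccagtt

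The printed promoters of Cbx8, Vps8, Cdk9 and Trh each held 1 match to GGGCGG on either strand and that of Nupl1 held 2, on both sides of the hairpin contrast. RefSeq's table held promoters for 36 of the 59 genes, 54 promoters in all. Promoters of the same gene are counted separately and some overlap, as in Ccdc136, so the shares are not of independent sequences. GGGCGG on either strand was in 33 of them (61.1%), beside 64.1% of the 10898 promoters of the genes compared and 35.7% of all 32851 in the table. TATAAA on either strand was in 6 (11.1%), beside 7.01% and 13.6%, and the octamer ATTTGCAT was in 1 (1.85%), beside 1.28% and 1.74%. The median number of CG dinucleotides was 12.5 in the promoters of the genes apart, 21 in those of all genes compared and 7 in the whole table. A match is a description of the letters only.

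A RAD23B region listed in both wild-type replicates of the chromatin immunoprecipitation lay within 1 kb of the start of all 5 of those genes. Over the 31 genes with coordinates of their own, 21 (67.7%) had such a region within 1 kb of the start and 23 (74.2%, exact Clopper-Pearson 95% interval 55.4 to 88.1) within 5 kb of the locus. Of all 7530 genes compared with coordinates of their own, 74.1% and 84.8% (84.02 to 85.7) did. The interval covers counting error only, and genes that share a region or a locus are not independent. The immunoprecipitation was made in other embryonic stem cells (the D3 line) than the RNA libraries.

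Among genes that share coordinates the extreme ratios were larger, and 4 of them rested on a library in which the authors' tables list an RPKM of exactly 1, which was read here as 0. Gm16499 was at 243 RPKM in knockdown 1 and at an exact 1 in the other 3 libraries. 2900060B14Rik was at 42.3 RPKM in knockdown 2 and at an exact 1 in the others. Gm10281 was at 97.5 RPKM in knockdown 2, 3.62 in wild type and an exact 1 in Rad23b-null and knockdown 1, and Gm11074 at 3.32 in knockdown 2, 4.23 in wild type and an exact 1 in the other 2. No fold is given for these 4 genes, since their ratios depend on how that value is read. Pof1b, an actin-binding protein gene on the X chromosome, was at 0.755, 0.354, 68.6 and 0.195 RPKM, high in knockdown 1 alone (log2 ratio -5.86).

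The other extremes at shared coordinates again differed in which library they sided with. 1810032O08Rik was at 15.4, 109, 119.7 and 11.98 RPKM in wild type, Rad23b-null, knockdown 1 and knockdown 2 (log2 ratio -3.22), and Gm11092 at 11.6, 32.3, 42.2 and 10.3 RPKM (-1.94). Both were high in Rad23b-null and knockdown 1 and at the wild-type level in knockdown 2. Gm3386 was at 0.890, 12.3, 0.930 and 14.7 RPKM (3.02), the arrangement seen for Vps8. Whether a value at shared coordinates belongs to the named gene, to its neighbour or to an antisense transcript was not tested, because the counting is not stated to use strand.

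Since the Rad23b-null cells differ from either knockdown only by the Xpc hairpin as labelled, each gene's Rad23b-null level was placed beside the knockdowns. Of the 59 genes, Rad23b-null lay nearer to knockdown 1 for 35 (59.3%) and nearer to knockdown 2 for 24, beside 41.7% and 58.3% of all genes compared. It lay between the knockdowns for 42 (71.2%), beside 31.3% of all genes compared, and beyond either of them for 17. Genes picked for a wide gap hold another library inside it more often by construction, so nothing is read from that share. Among the genes at least 1.5-fold apart, a limit chosen after the data were seen, Rad23b-null lay nearer to knockdown 1 for 40.5%, close to the share over all genes. With a pseudocount of 0.1 it was nearer to knockdown 1 for 47.8% of the genes then 2-fold apart. Neither knockdown was the outlying library for all of the 59. Of the 20 higher genes with their own coordinates, 8 had wild type and Rad23b-null both nearer to knockdown 1, among them Tnrc6b, Ccdc136, Il17rc and Fam65a. Another 5, among them Trh and Mmp17, had Rad23b-null nearer to knockdown 1 and wild type nearer to knockdown 2. For 3 (Cbx8, Vps8 and Gm17657) this was the reverse, and for 4 (Lgals7, Zfp618, Prdx3 and Gm10509) both were nearer to knockdown 2.

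The 11 lower genes fell into the same classes. Wild type and Rad23b-null were both nearer to knockdown 1 for 3 (Cdk9, Nupl1 and Prdx6) and both nearer to knockdown 2 for 5 (Peg10, Sgce, Anxa1, Ubd and 4933402E13Rik). Arap2 and Azi1 had Rad23b-null nearer to knockdown 1 and wild type nearer to knockdown 2, and H2-T3 the reverse. With 1 library a group, none of these placements has an error.

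The scatter between the hairpins narrowed with expression, while the share of genes apart at a pseudocount of 1 did not. That pseudocount lowers the ratios of genes with low values, so the low classes hold fewer genes apart by construction. Tmod4, for example, at 0.496 RPKM in knockdown 1 and 1.98 in knockdown 2, counted as less than 2-fold apart. The spread of the log2 ratios was 0.25 for the 1351 genes with a mean below 2 RPKM and 0.14 for the 899 genes of at least 100 RPKM. The median log2 ratio was 0.01 in the former class and -0.07 in the latter. The share at least 2-fold apart was 0.370% in the lowest class (5 genes), highest at 0.692% between 5 and 10 RPKM (14 genes), and 0.556% at 100 RPKM or more (5 genes), where Cdk9 and Prdx6 lie. The genes apart with coordinates of their own had a median locus length of 10.5 kb, beside 17.8 kb for all such genes.

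**Figure D3:**
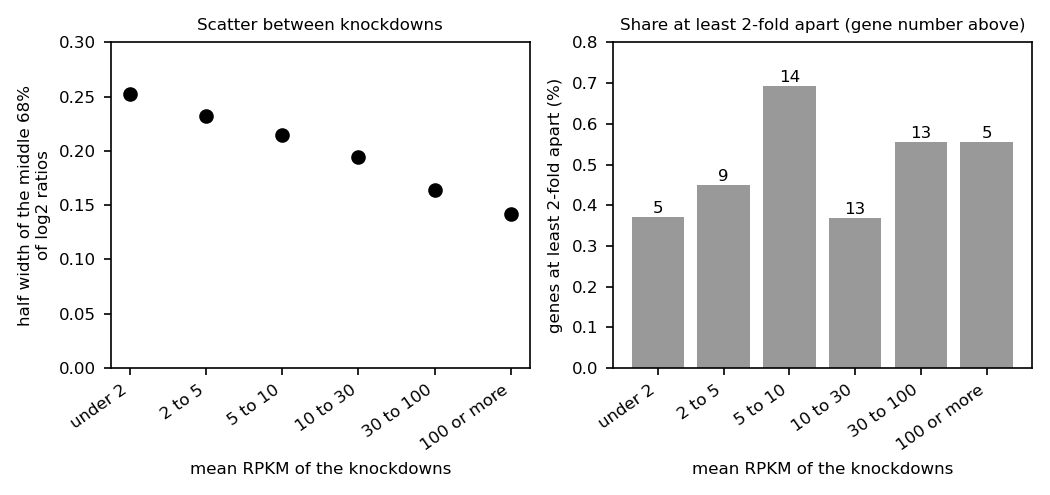
Left, spread of the log2 ratios (the distance of the bounds of the middle 68% from the centre, in log2 units) in 6 classes of mean RPKM of the knockdowns; right, percent of the genes in each class at least 2-fold apart, with the number of genes above each bar. The spread falls from 0.25 to 0.14, and the share stays between 0.369% and 0.692%. The pseudocount of 1 lowers the ratios, and so both measures, in the low classes.

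Groups of genes fixed in 34 lists held 746 of the genes compared, of which 4 were at least 2-fold higher in knockdown 2 (Cbx8, Mmp17, Tnrc6b and Tex13) and 6 at least 2-fold lower (Peg10, Sgce, Igf2, Ddc, Tagln and Anxa1), 1.34% in all beside 0.486% of all genes compared. In 28 lists no member was 2-fold apart, and in 28 the median log2 ratio lay within 0.15 of 0. The list medians ran from -0.32 to 0.29, beside -0.00 over all genes, of which 50.0% were above 0. The lists were chosen with earlier results of these data known, and a list's count or median is given as a description.

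Trophectoderm genes, which mark the layer that forms the placenta, had the lowest median. Of 16 compared, 14 were lower in knockdown 2, with a median log2 ratio of -0.32, none at least 2-fold and 5 at least 1.5-fold lower (1.38% of all genes were 1.5-fold lower). Krt7, an epithelial keratin, was at 2.37, 4.47, 4.68 and 1.91 RPKM in wild type, Rad23b-null, knockdown 1 and knockdown 2 (-0.97). Named after their values were seen, the keratins Krt8 (20.9, 22.9, 18.8 and 10.7 RPKM, -0.76) and Krt18 (18.0, 25.0, 20.6 and 11.998 RPKM, -0.73), and the transcription factor gene Hand1 (0.321, 3.22, 3.48 and 1.68 RPKM, -0.74), were likewise lowest of the mutant libraries in knockdown 2. The list's median against Rad23b-null was -0.00 in knockdown 1 and -0.31 in knockdown 2. Id2, a helix-loop-helix inhibitor of differentiation that also leads the BMP list, was at 14.3, 28.2, 32.1 and 16.5 RPKM (-0.92).

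Actin cytoskeleton and smooth muscle genes stood next, with 21 of 23 lower in knockdown 2 and a median of -0.26. Tagln, the actin-binding transgelin gene, shares its coordinates with others and was at 18.6, 12.3, 22.2 and 8.19 RPKM (-1.34). Beside Anxa1 it was the only member at least 2-fold lower. Against Rad23b-null the list's median was 0.12 in knockdown 1 and -0.21 in knockdown 2, so the knockdowns lay on either side of the Rad23b-null library. The fibroblast markers, of a cell type that shares several of these genes, summed to 1.83 RPKM in knockdown 1 and 1.99 in knockdown 2. Thy1 alone gave 1.20 and 1.32 of these sums. Whether cell content bears on the lower ratios was not tested.

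Imprinted genes held 4 of the 6 lower members, or 4 of the 23 imprinted genes compared, beside 0.231% of all genes compared. Besides Peg10 and Sgce these were Igf2, the paternally expressed growth factor gene (2.52, 6.43, 8.96 and 3.49 RPKM, log2 ratio -1.15), and Ddc, which encodes aromatic amino acid decarboxylase (24.8, 24.5, 41.0 and 19.7 RPKM, -1.02), both at shared coordinates. In all 4 knockdown 1 was the highest of the libraries. Peg10 and Sgce lie 101 bp apart, so the 4 genes are not independent of each other. The other 19 of the 23 imprinted genes compared were less than 2-fold apart, and the list's median was -0.14. No imprinted gene was 2-fold higher in knockdown 2, beside 0.255% of all genes compared.

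The highest medians, 0.29 each, were those of genes of the 2-cell embryo and of replication-dependent histones. Of 13 genes of the 2-cell embryo, 11 were higher in knockdown 2, and the median was 0.56 with a pseudocount of 0.1. With a minimum of 5 RPKM it was 0.58, but on few genes, since Tcstv3 and Zscan4f among others stayed below that minimum. Members that are near-identical copies of each other are not independent. Tcstv3 was listed at an exact 1 in wild type, read as 0, and at 3.95, 1.33 and 3.08 RPKM in Rad23b-null, knockdown 1 and knockdown 2 (0.81), and Zscan4f, named after its values were seen and a member of a cluster of near-identical copies, at 0.267, 5.09, 1.98 and 4.19 RPKM (0.80). For both genes Rad23b-null was the highest library, and the list's median against it was -0.48 in knockdown 1 and -0.20 in knockdown 2. Of 31 histone genes 21 were higher in knockdown 2, but the largest ratio was a lower one, Hist1h2ac at 0.209, 2.93, 8.19 and 4.02 RPKM (-0.87), and with a minimum of 5 RPKM the list's median turned to -0.27. Replication-dependent histone transcripts end without a poly-A tail, so poly-A libraries capture them poorly.

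In the germline list (27 compared, median 0.13) Tex13, an X-linked testis-expressed gene, was the only member at least 2-fold apart, at 1.26, 4.62, 3.66 and 8.60 RPKM (1.04). Hormad1, a meiotic chromosome axis gene named after its values were seen, was at 34.2, 33.4, 18.2 and 36.3 RPKM (0.96), low in knockdown 1 alone. Among DNA methylation genes (20 compared, median 0.13) the largest ratio was that of the de novo methyltransferase Dnmt3a, at 45.9, 52.99, 43.8 and 74.2 RPKM (0.75) on shared coordinates. Of 30 Polycomb genes Cbx8 alone was 2-fold apart, and the list's median was -0.09.

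Genes that handle small RNAs or respond to dsRNA lay near 0, apart from Tnrc6b. Of 20 small RNA machinery genes, which process and use hairpin RNAs, Tnrc6b was the only one 2-fold apart, and the median was 0.02. None of 20 interferon and dsRNA response genes reached 1.5-fold (median 0.07), with the largest ratio in Bst2, the antiviral tetherin gene, at 51.8, 47.1, 41.9 and 54.0 RPKM (0.36). None of 22 nucleotide excision repair genes did either (median -0.09), the largest being Gtf2h4, a TFIIH subunit gene, at 32.1, 25.6, 27.2 and 21.3 RPKM (-0.34). Of all genes compared 2.95% were at least 1.5-fold apart, so a count of none in lists this small is near that share. Of 30 p53 targets 24 were lower in knockdown 2, with a median of -0.13 and the largest ratio in the apoptosis effector Perp, at 28.9, 73.4, 73.9 and 50.1 RPKM (-0.55).

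Pluripotency genes lay close to 0, with a median of -0.05 over 34, of which 24 were lower in knockdown 2. The largest ratio was that of Tcl1, a cofactor of AKT kinase, at 64.3, 22.6, 30.8 and 19.6 RPKM (-0.62). Among 18 genes of the Nodal pathway and the primed state the median was -0.01. Primitive endoderm genes had a median of 0.05 over 15, with the chemokine receptor Cxcr4 at 3.13, 1.72, 3.73 and 1.74 RPKM (-0.79), and neural ectoderm genes 0.12 over 11, with the transcription factor Zic2 at 17.5, 13.6, 12.7 and 20.9 RPKM (0.68). None of the genes compared in these 4 lists was 2-fold apart, which is near the share of 0.486% over all genes compared.

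Stress and metabolism lists were centred near 0 with single members that stood out. Pdia4, an endoplasmic reticulum protein disulfide isomerase, was at 89.4, 81.0, 121 and 229.7 RPKM (log2 ratio 0.92), highest in knockdown 2, while its list of 24 endoplasmic reticulum stress genes had a median of 0.00. Psmb6, a catalytic subunit of the proteasome core, was at 399.5, 208, 127 and 208 RPKM (0.70), lowest in knockdown 1, and its list of 38 proteasome genes had a median of -0.03. Eno2, a neuronal enolase of glycolysis, was at 2.05, 4.11, 2.53 and 5.11 RPKM (0.79). ATF4 target and amino acid response genes were higher in knockdown 2 for 29 of 37 with a median of 0.11, led by Cebpb at shared coordinates (0.887, 2.25, 1.56 and 3.54 RPKM, 0.83). Ribosomal protein genes were lower for 67 of 74, but by a median of only -0.08. All 899 genes with a mean of at least 100 RPKM had a median of -0.07, so the list lay near other highly expressed genes. Rpl7a had the largest ratio of the list, at 1509, 1334, 1379 and 1084 RPKM (-0.35).

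**Figure D4:**
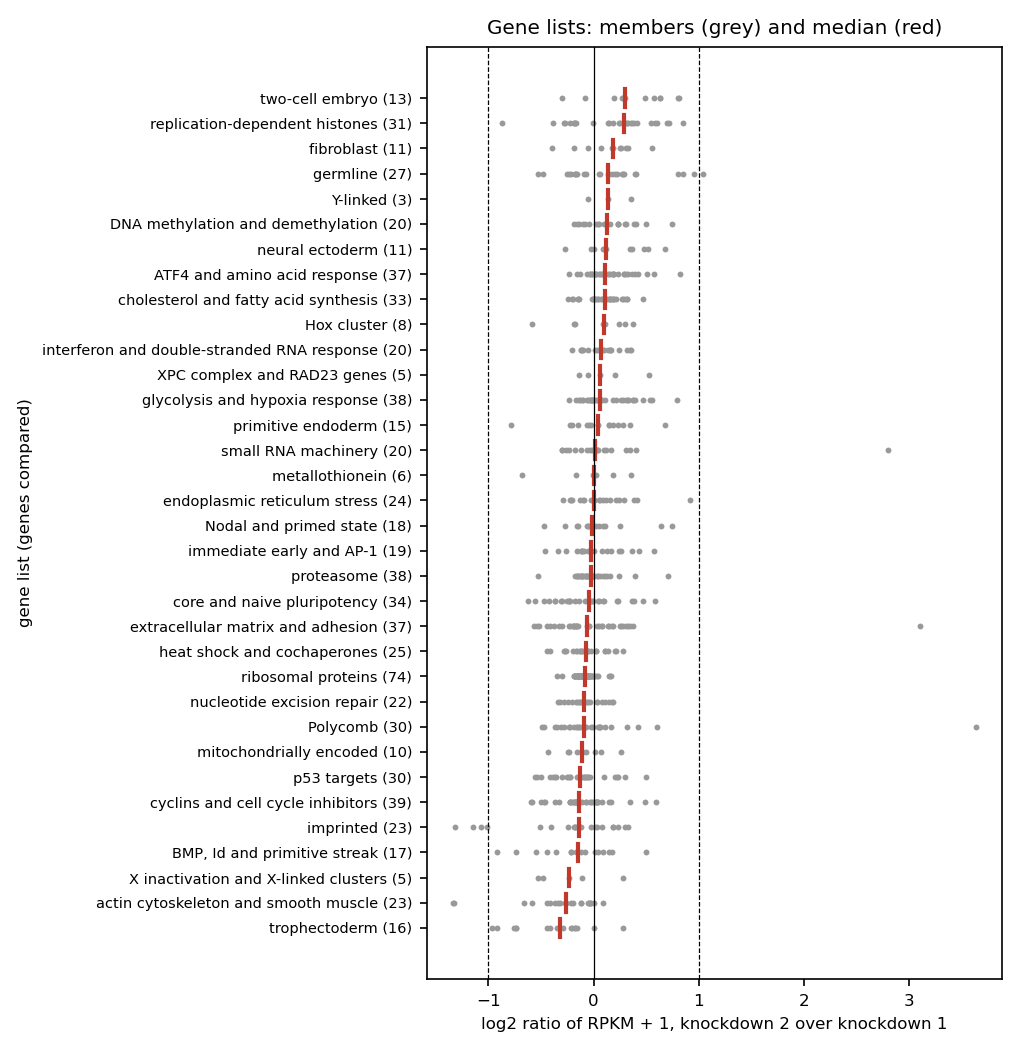
Log2 ratio of RPKM + 1, knockdown 2 over knockdown 1, for the members compared in each of 34 gene lists (grey points, number in brackets) with the list's median as a red bar; dashed lines mark a 2-fold difference. Medians run from -0.32 (trophectoderm) to 0.29 (2-cell embryo), and the far points to the right are Cbx8, Mmp17 and Tnrc6b.

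The remaining lists had medians between -0.23 and 0.19 and no member 2-fold apart except Mmp17 of the extracellular matrix list (37 compared, median -0.06). Of all genes compared, 0.486% were 2-fold apart. Their largest single ratios were those of Mt4, a metallothionein of stratified epithelia (5.96, 0.480, 1.70 and 0.684 RPKM, log2 ratio -0.68), the cyclin gene Ccnd2 at shared coordinates (2.13, 2.56, 3.04 and 5.10 RPKM, 0.60), Hoxa7 at shared coordinates (0.123, 0.704, 1.20 and 0.468 RPKM, -0.58), the stress-induced factor Atf3 (3.10, 7.31, 4.17 and 6.70 RPKM, 0.57) and the collagen cross-linking enzyme gene Loxl1 of the fibroblast list (1.34, 2.09, 1.60 and 2.83 RPKM, 0.56). Rhox6 of the X-linked list, a reproductive homeobox gene, had a ratio of -0.53, Dhcr7 of cholesterol synthesis 0.47, the cochaperone Chordc1 -0.44, the mitochondrially encoded mt-Nd2 -0.44 and the Y-linked helicase Ddx3y 0.36.

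The authors' deposited tables give a p-value for each knockdown against wild type, without a statement of adjustment and from 1 library a group. Of the 59 genes, 5 (8.47%) were below 0.05 in the knockdown 1 table and 6 (10.2%) in the knockdown 2 table, beside 2.64% and 2.58% of all genes compared. The 59 genes were picked from the same knockdown libraries, so nothing is read from these shares. Over the 20 chromosomes with at least 100 genes compared, the median log2 ratio between the hairpins ran from -0.03 (chromosome 14) to 0.07 (chromosome 8). Chromosome 11, whose median was -0.51 in knockdown 1 and -0.49 in knockdown 2 against wild type, had a median of 0.00 between the hairpins. Against Rad23b-null its median was -0.005 in knockdown 1 and 0.006 in knockdown 2.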

How the data were processed

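Poly-A RNA of the JM8.N4 line was read in 1 library per group, and the authors deposited 1 table per mutant that sets it beside the wild type. Each gene has an RPKM value per library, as deposited by the authors, a fold ratio given by the authors that was not used here, and a p-value listed by the authors. Per the submitters' processing notes, TopHat2 2.0.6, Cufflinks 2.0.2, Cuffdiff and Partek were used with the mm9 build. RAD23B regions came from the authors' deposited lists, 1 per sample, whose scaled fold change over control serum, also the authors', was not used.

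Of 36658 lines in a table, 72 name no gene and were left out. RPKM values of knockdown 2 were multiplied by 0.991 and those of Rad23b-null by 0.974, which makes the wild-type columns match that of the knockdown 1 table. An exact RPKM of 1, taken here to mark a gene without reads, was read as 0, the pseudocount was 1 and genes needed 1 RPKM in either knockdown. There is no test between the hairpins, and counts are of genes at least 2-fold apart. Genes named are Xpc, Rad23b and Cetn2, the 12 highest and 12 lowest with their own coordinates, the 4 highest and 4 lowest at shared coordinates, and in each list the members 2-fold apart (at most 4) or else the one with the largest ratio, and any other is said to be named after its values were seen. The genes and lists were chosen with earlier results of these data known. The code was run on simulated data with 200 well expressed genes changed by more than the 2-fold limit. Their recovery was fixed by that setting, so it gives no error rate for the real libraries. Python 3.11.15, pandas 2.3.3, numpy 2.4.6 and scipy 1.17.1 were used. Alternatives were another pseudocount, minimum, scaling, treatment of an exact 1, genes with their own coordinates only and a limit of 1.5-fold.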

Additional observations from a re-analysis of the deposited data

Results flagged for a closer look

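Of all genes compared, 2 stood at least 1.5-fold from the Rad23b-null library in opposite directions in the knockdowns. Others lay on opposite sides of it by less in at least 1 knockdown. Cbx8 had a log2 ratio over Rad23b-null of -2.63 in knockdown 1 and 1.01 in knockdown 2. Lgals7 had -1.37 in knockdown 1 and 0.80 in knockdown 2. Both genes have coordinates of their own and a RAD23B region within 1 kb of the start. With 1 library a group, the difference was not tested.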

How the results depend on the processing

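With a pseudocount of 0.1 the counts at least 2-fold apart were 75 higher and 84 lower, and 23 list members, and the share with Rad23b-null nearer to knockdown 1 was 47.8%. With only genes that have their own coordinates, which leaves fewer genes to compare, they were 20 higher and 11 lower. A limit of 1.5-fold, chosen after the data were seen, gave 190 higher, 168 lower and 44 list members, and Rad23b-null was nearer to knockdown 1 for 40.5% of those genes. Without a minimum, with a minimum of 5 RPKM, centred on the median, unscaled, or with an exact 1 kept, the counts stayed within 1.5 times, and no named gene changed direction. The median of histone genes turned from 0.29 to -0.27 with a minimum of 5 RPKM, and 5 other list medians near 0 changed sign under at least 1 setting (BMP, Hox, Nodal, metallothionein and primitive endoderm). Of 63 genes named, 25 crossed the 2-fold limit or moved by more than the spread of all genes with a pseudocount of 0.1, and 4 with an exact 1 kept. No paired analysis was possible because there is 1 library per group, and no library could be left out. The limits are the lack of replicates, unknown read totals and loci listed at shared coordinates.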
